A study of Mus musculus with 15 samples.

Results

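The Ypel family consists of 5 genes in the mouse, Ypel1 to Ypel5, which were taken by name from a table of 53801 genes measured in cultured adult neural stem cells (aNSCs). Ypel1 was selected on its measured level, since its fall in earlier results from these libraries was the reason to look at the family, and its values are therefore given as a description without a test. Its 4 paralogs entered through their names. Poly(A) RNA of 15 primary cultures from the subventricular zone of mice aged 2 months was sequenced, and all mice carried the Rosa26-CreERT2 transgene on a C57BL6/J-129sv background. CreERT2 is a recombinase made in all tissues, which acts on floxed DNA once 4-hydroxytamoxifen (4-OHT) is added. Trrap, the floxed gene, encodes a scaffold of histone acetyltransferase complexes. The groups were 5 Trrap Fl/+ cultures without treatment, 5 Trrap Fl/+ cultures treated with 4-OHT and 5 Trrap Fl/Fl cultures treated with 4-OHT. The 2 Fl/+ groups came from the same mice, numbered 19, 24, 26, 35 and 36, and the Fl/Fl group from mice 27, 28, 29, 37 and 39. Treated Fl/+ cells can lose their single floxed allele, so exposure to 4-OHT, activity of the recombinase and loss of 1 Trrap allele cannot be told apart in the comparison of treated with untreated Fl/+ cultures.

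Ypel genes encode small, highly conserved proteins built around the zinc-binding Yippee fold. YPEL5 is a subunit of the CTLH (GID) ubiquitin ligase, YPEL3 is known in human cells as a target of p53 that restrains growth, and YPEL1 was first described as a nuclear protein that alters cell shape. The functions of YPEL2 and YPEL4 are less well known. In GRCm38, Ypel1 (ENSMUSG00000022773) lies on the plus strand at chr16:17069696-17087045 and Ypel2 (ENSMUSG00000018427) on the minus strand at chr11:86936425-86993707. Ypel3 (ENSMUSG00000042675) lies at chr7:126776955-126780514, Ypel4 (ENSMUSG00000034059) at chr2:84734058-84738655 and Ypel5 (ENSMUSG00000039770) at chr17:72836453-72851195, all on the plus strand. Each is annotated as protein-coding.

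The coding sequences of the paralogs are alike enough that it matters whether 51-base reads can be assigned to 1 member. The stretch of 60 coding bases in which the members differ least is shown for each, with bases that differ from Ypel1 in capitals.
Ypel1: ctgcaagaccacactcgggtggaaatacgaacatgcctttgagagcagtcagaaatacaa
Ypel2: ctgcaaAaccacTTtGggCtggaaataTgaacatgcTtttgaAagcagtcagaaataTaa
Ypel3: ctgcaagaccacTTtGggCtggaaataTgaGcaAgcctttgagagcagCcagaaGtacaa
Ypel4: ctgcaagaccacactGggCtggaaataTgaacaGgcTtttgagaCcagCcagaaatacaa
Ypel5: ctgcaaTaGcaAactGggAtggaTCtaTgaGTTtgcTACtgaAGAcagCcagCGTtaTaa
Within this window Ypel4 differed from Ypel1 at 7 positions, Ypel2 and Ypel3 at 9 each and Ypel5 at 22. Over the whole coding sequence, Ypel1 shared 81% of aligned bases with Ypel2, 79% with Ypel3, 78.2% with Ypel4 and 57.1% with Ypel5. The longest identical run between Ypel1 and a paralog was 25 bases, shorter than a read. No word of 51 bases from the transcripts of any member occurred in another member. Of 4177 such words in Ypel5, 48 (1.15%) occurred in other genes, and in Ypel1 to Ypel4 none did.

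Between treated Fl/Fl and treated Fl/+ cultures, Ypel1 was lower and the paralog Ypel5 was higher. Promoters are shown for both and for Ypel3, the most abundant member. They are the 250 bases before the RefSeq start on GRCm38.p6, with the GC box GGGCGG, searched on both strands, in capitals. They lie at chr16:17069889-17070138, chr17:72836378-72836627 and chr7:126776713-126776962, on the plus strand, and the window of Ypel1 is inside the gene as annotated above.
Ypel1: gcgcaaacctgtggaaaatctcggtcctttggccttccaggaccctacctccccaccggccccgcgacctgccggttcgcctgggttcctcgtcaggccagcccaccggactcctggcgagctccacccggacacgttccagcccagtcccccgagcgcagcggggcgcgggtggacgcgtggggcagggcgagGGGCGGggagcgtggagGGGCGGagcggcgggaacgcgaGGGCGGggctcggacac
Ypel5: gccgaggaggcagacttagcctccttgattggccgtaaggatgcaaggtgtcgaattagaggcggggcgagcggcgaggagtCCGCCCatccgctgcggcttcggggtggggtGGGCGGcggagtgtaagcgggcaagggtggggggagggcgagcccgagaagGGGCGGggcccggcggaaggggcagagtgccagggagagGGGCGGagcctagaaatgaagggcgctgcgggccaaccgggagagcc
Ypel3: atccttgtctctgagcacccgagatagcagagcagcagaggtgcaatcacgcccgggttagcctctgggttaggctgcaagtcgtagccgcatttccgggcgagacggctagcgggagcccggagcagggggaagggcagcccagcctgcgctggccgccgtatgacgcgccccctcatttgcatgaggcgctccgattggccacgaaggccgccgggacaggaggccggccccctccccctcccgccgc
The Ypel1 promoter held 3 GC boxes, as did that of Ypel2, and the Ypel5 promoter held 4, with 2 at its second start. None was found in the window of Ypel3 or Ypel4. Of 27025 promoters of the same length, 32.9% held at least 1 GC box and 8.4% held 3 or more. All 5 windows were rich in G and C, from 62% in Ypel4 to 74% in Ypel1, beside a median of 52% over all promoters. Neither TATAAA nor CACGTG was found in any of them, whereas 13% and 6.05% of all promoters held these letters. CCAAT was found once in each first-start window but that of Ypel1 and occurred in 34.5% of all promoters.

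Total counts ranged from 25.7 M to 32.2 M per library, and 3 counts, used as the detection floor, were worth 0.0932 to 0.119 CPM (counts per M counts of the library, scaled by TMM). Trrap itself was at 190 ± 14.3 CPM (SD, n = 5) in untreated Fl/+, 164 ± 26.4 CPM in treated Fl/+ and 104 ± 24.2 CPM in Fl/Fl cultures, and it was lower in Fl/Fl than in treated Fl/+ cultures (log2 fold change -0.64, SE 0.160, edgeR adjusted p = 0.0115). Trrap in the Fl/Fl 29 library, at 142 CPM, was within the range of treated Fl/+ libraries (138 to 204 CPM). The library labelled Fl/Fl 39 and female carried Ddx3y, a Y-linked gene, at 54.0 CPM and thus goes against its label. Mouse 36, labelled male, carried Xist at 5.89 CPM without and 74.7 CPM with treatment beside its Y-linked genes, while the other male-labelled libraries were at 0.541 CPM or below, and the part of this in its values was not tested. All 10 neural stem cell markers examined were detected in every library, with summed levels of 8106 to 14103 CPM. Microglia markers summed to at most 0.868 CPM and endothelial markers to at most 0.434 CPM, and Aif1, Cx3cr1, Ptprc and Cldn5 were each at 0 in 14 of 15 libraries.

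Levels were compared between members per kilobase of exon. In untreated Fl/+ cultures Ypel3 led with 36.5 ± 21.6 CPM per kb (SD, n = 5), followed by Ypel5 with 12.7 ± 1.32, Ypel1 with 4.17 ± 0.632, Ypel4 with 3.54 ± 1.98 and Ypel2 with 0.737 ± 0.236 CPM per kb. Ypel3 was above Ypel5 in 5 of 5 of these cultures although their ranges overlapped, and Ypel4 was above Ypel1 in 1 of 5. In treated Fl/+ cultures Ypel1, at 2.79 ± 0.487 CPM per kb, and Ypel4, at 3.96 ± 1.55 CPM per kb, again overlapped, and Ypel4 was the higher in 3 of 5. In Fl/Fl cultures Ypel1 stood at 0.902 ± 0.0719 CPM per kb, below Ypel4 in 5 of 5, and its range overlapped that of Ypel2, at 1.11 ± 0.363 CPM per kb. Ypel1 thus moved from the middle of the family to the level of its least abundant member.

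**Figure D1:**
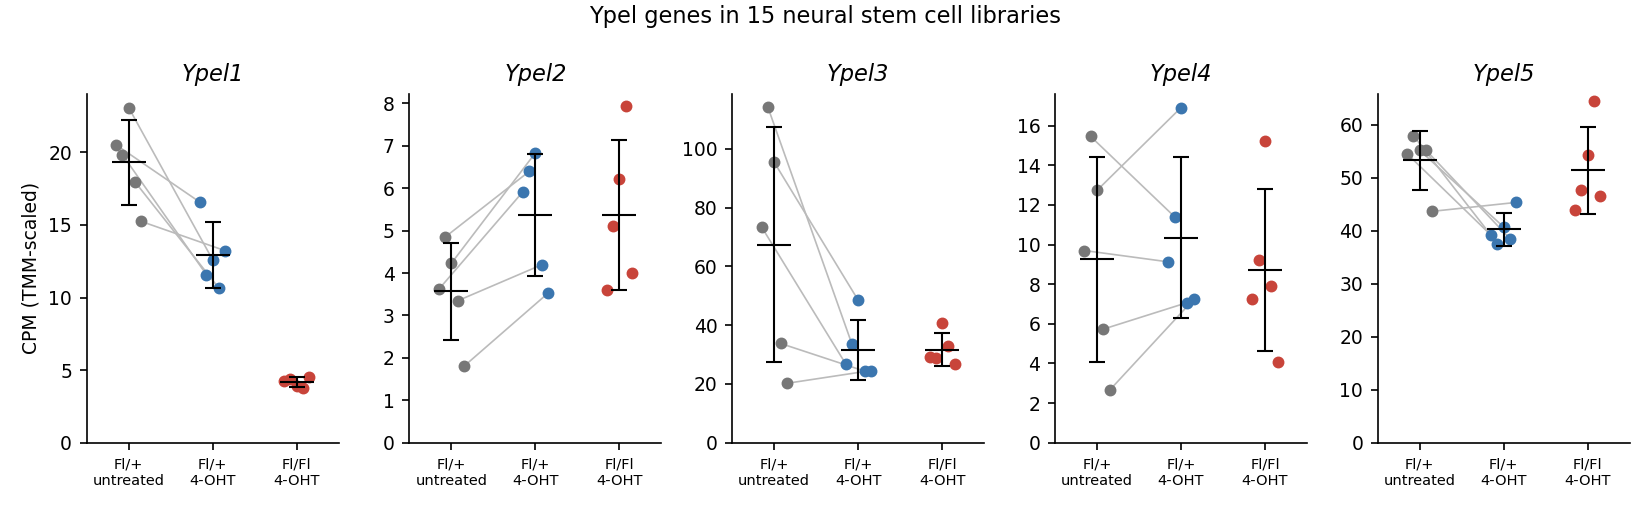
Level of each Ypel gene in CPM (vertical axis, starting at 0) in the 5 libraries of each group (points), with the mean and SD in black and grey lines joining cultures of the same mouse. Ypel1 in Fl/Fl cultures lay between 3.75 and 4.55 CPM, below every Fl/+ culture, while for each paralog the groups overlapped.

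Ypel1 was lowest in Fl/Fl cultures and intermediate in treated Fl/+ cultures. In mice 19, 24, 26, 35 and 36, in that order, it was at 20.5, 19.8, 23.1, 18.0 and 15.2 CPM without treatment (19.3 ± 2.93, SD, n = 5). The same mice gave 16.6, 11.6, 12.6, 10.6 and 13.2 CPM after 4-OHT (12.9 ± 2.26). Fl/Fl cultures of mice 27, 28, 29, 37 and 39 gave 4.26, 4.42, 3.93, 3.75 and 4.55 CPM (4.18 ± 0.333). Every Fl/Fl culture was below every Fl/+ culture of either kind, and the Fl/Fl 29 library, whose Trrap level was within the range of treated Fl/+ libraries, was as low as the others. The coefficient of variation was 7.97% in Fl/Fl, 17.5% in treated Fl/+ and 15.2% in untreated Fl/+ cultures. Treated Fl/Fl against treated Fl/+ cultures gave a log2 fold change of -1.61 (SE 0.141), a level 3.06-fold lower, and 73rd from the lowest among 15036 genes tested. After 4-OHT in Fl/+ cultures it was -0.58 (SE 0.151), and Ypel1 was lower after treatment in 5 of 5 mice, though the ranges of the groups overlapped. Fl/Fl against untreated Fl/+ cultures gave -2.20 (SE 0.143), a level 4.58-fold lower. Without the library labelled Fl/Fl 39 the first and last of these values were -1.65 and -2.23. In these bulk cultures, fewer cells that express a gene and less RNA per cell cannot be told apart.

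Trrap deletion was addressed by comparing treated Fl/Fl with treated Fl/+ cultures, in which both arms had received 4-OHT. No untreated Fl/Fl culture was among the samples, and the Fl/Fl cultures came from other mice than the Fl/+ cultures. A difference of genotype or mice present before 4-OHT thus cannot be told apart from deletion. The control cultures may themselves have lost 1 allele. Of the 4 paralogs of Ypel1, only Ypel5 passed the test in this comparison, and it was higher. Over all 15036 genes tested, 31.7% were called at an adjusted p under 0.05, 16.8% higher and 15% lower, and in 22.6% the ranges of the groups did not overlap, so that 1 of 4 was near the background.

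Ypel5, the CTLH subunit, was at 39.1, 37.6, 40.7, 38.5 and 45.4 CPM in treated Fl/+ cultures of mice 19, 24, 26, 35 and 36 (40.2 ± 3.07, SD, n = 5). Fl/Fl cultures of mice 27, 28, 29, 37 and 39 gave 43.9, 47.7, 54.3, 64.5 and 46.5 CPM (51.4 ± 8.29). The groups overlapped only through mouse 36, whose treated Fl/+ culture was above the lowest Fl/Fl culture. The log2 fold change was 0.37 (SE 0.105, edgeR adjusted p = 0.0212, exact permutation p = 0.0159 with 252 arrangements). The call was lost when any 1 of 4 libraries was left out, namely treated Fl/+ 19 (0.34, adjusted p = 0.0605), 24 (0.33, adjusted p = 0.0566) or 35 (0.34, adjusted p = 0.0598) or Fl/Fl 29 (0.33, adjusted p = 0.0572). It was kept without the library labelled Fl/Fl 39 (0.39, adjusted p = 0.0278).

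The other paralogs showed no such difference. Ypel2 was at 5.37 ± 1.44 CPM in treated Fl/+ and 5.37 ± 1.76 CPM in Fl/Fl cultures (log2 fold change 0.01, SE 0.256, edgeR adjusted p = 0.981). Ypel3 was at 31.6 ± 10.2 and 31.7 ± 5.55 CPM (0.02, SE 0.199, adjusted p = 0.947), and Ypel4 at 10.3 ± 4.06 and 8.74 ± 4.09 CPM (-0.23, SE 0.339, adjusted p = 0.642). The SE of each of these 3 genes was larger than that of Ypel1 (0.141), and differences within these errors were not detectable here.

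The effect of 4-OHT was addressed in Fl/+ cultures of the same 5 mice with and without treatment. The treated Fl/+ libraries also serve as the control of the comparison for Trrap deletion, so a deviation of this group enters both comparisons with opposite sign. Without regard to the pairing, 1 of 4 paralogs was called, Ypel5, whereas a replicate block for the mouse raised this to 3 of 4, namely Ypel2 (higher), Ypel3 and Ypel5 (lower). Over all 14821 genes tested, 13.8% were called without the block, 7.34% higher and 6.45% lower, and 25.7% with it. The ranges of the groups did not overlap in 12% of genes.

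Ypel5 without treatment was at 54.5, 57.9, 55.2, 55.2 and 43.7 CPM in mice 19, 24, 26, 35 and 36 (53.3 ± 5.54, SD, n = 5), against 40.2 ± 3.07 CPM after 4-OHT. It was lower after treatment in 4 of 5 mice, and mouse 36, the lowest untreated culture, went from 43.7 to 45.4 CPM. The log2 fold change was -0.40 (SE 0.0938, edgeR adjusted p = 0.0171, and adjusted p = 0.0246 with the block). An exact permutation test over the 10 libraries gave p = 0.0159, and an exact sign-flip test over the 5 mice gave p = 0.125, where the smallest possible value is 0.0625. Without the block, the call was lost on leaving out treated Fl/+ 19 (-0.38, adjusted p = 0.0510) or treated Fl/+ 35 (-0.38, adjusted p = 0.0515). With the block, it was lost without mouse 19 (-0.37, adjusted p = 0.0662), 24 (-0.33, adjusted p = 0.0826), 26 (-0.39, adjusted p = 0.0755) or 35 (-0.37, adjusted p = 0.0855).

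Ypel3, the most abundant member and known elsewhere as a p53 target, was at 73.4, 114, 95.4, 33.8 and 20.2 CPM in untreated cultures of mice 19, 24, 26, 35 and 36 (67.4 ± 39.9, SD, n = 5). After 4-OHT the same mice gave 26.9, 33.6, 48.5, 24.4 and 24.5 CPM (31.6 ± 10.2). Mice 19, 24 and 26 started high and came down, whereas mice 35 and 36 were already near the treated level, and mouse 36 was the only one with a higher value after treatment. The log2 fold change was -1.09 (SE 0.413, edgeR adjusted p = 0.103) without the block and -0.89 (SE 0.261, adjusted p = 0.0371) with it, and an exact sign-flip test gave p = 0.125. Leaving out the untreated culture of mouse 36 also brought it past the threshold (-1.33, adjusted p = 0.0206). The blocked call was lost without mouse 19 (-0.74, adjusted p = 0.121), 24 (-0.65, adjusted p = 0.0968), 26 (-0.87, adjusted p = 0.0969) or 35 (-1.0, adjusted p = 0.0639).

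Ypel2, the least abundant member in Fl/+ cultures, was at 3.62, 4.85, 4.23, 3.35 and 1.80 CPM without treatment (3.57 ± 1.14, SD, n = 5). After 4-OHT the same mice gave 5.91, 6.39, 6.83, 4.19 and 3.53 CPM (5.37 ± 1.44). It was higher in 5 of 5 mice, while the ranges of the groups overlapped because the mice differed among themselves. The log2 fold change was 0.59 (SE 0.275, edgeR adjusted p = 0.180) without the block and 0.61 (SE 0.158, adjusted p = 0.0240) with it, and the exact sign-flip p was 0.0625, the smallest that 5 mice allow. The blocked call was lost without mouse 19 (0.60, adjusted p = 0.0552), 26 (0.59, adjusted p = 0.0820) or 36 (0.53, adjusted p = 0.0544). Ypel4 gave 9.25 ± 5.16 and 10.3 ± 4.06 CPM, with log2 fold changes of 0.16 (SE 0.415, adjusted p = 0.833) and 0.30 with the block (SE 0.241, adjusted p = 0.393), and was higher in 3 of 5 mice.

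**Figure D2:**
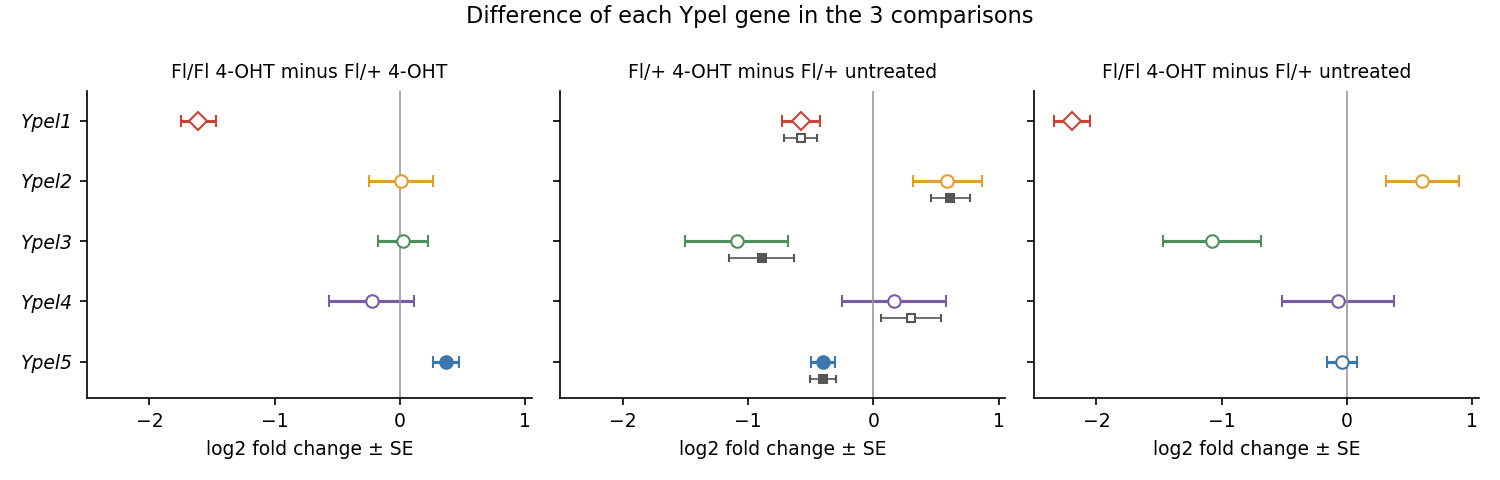
Log2 fold change of each Ypel gene with its SE (horizontal axis) in the 3 comparisons. Filled symbols were called at an adjusted p under 0.05, open symbols were not, diamonds mark Ypel1, for which no p is given, and grey squares show the fit with the mouse as a replicate block. Ypel5 was at 0.37 between treated Fl/Fl and treated Fl/+ cultures and at -0.40 after 4-OHT. These comparisons share the treated Fl/+ libraries with opposite sign. Between Fl/Fl and untreated cultures Ypel5 was at -0.04, and Ypel1 was negative in all 3 comparisons.

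Fl/Fl cultures were also set against untreated Fl/+ cultures, which combines exposure and deletion with any difference between the mice. This comparison shares libraries with both others. None of the 4 paralogs was called by edgeR, 1 had an unadjusted p under 0.05, and DESeq2 called 1, Ypel3 (-1.08, adjusted p = 0.0150). Over all 15032 genes tested, 30.7% were called, 15.7% higher and 15.1% lower, and 23.1% had groups that did not overlap. Ypel3 was at 29.2, 28.7, 40.9, 32.7 and 26.9 CPM in the 5 Fl/Fl cultures, within the spread of untreated cultures (log2 fold change -1.08, SE 0.391, edgeR adjusted p = 0.0571). It was called when the untreated culture of mouse 35 (-1.25, adjusted p = 0.0306) or 36 (-1.31, adjusted p = 0.00698) was left out. Ypel2 was at 3.60, 5.10, 6.23, 7.93 and 3.99 CPM in Fl/Fl cultures (0.60, SE 0.292, adjusted p = 0.141). Ypel5 gave -0.04 (SE 0.118, adjusted p = 0.832) and Ypel4 -0.07 (SE 0.447, adjusted p = 0.924), and both of these changed sign with scaling by library size alone.

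The summed level of the family had a lower mean in treated cultures, mostly through Ypel3. Summed over the 5 members, it was at 57.6 ± 25.3 CPM per kb in untreated Fl/+ (SD, n = 5), 34.6 ± 7.19 in treated Fl/+ and 34.8 ± 5.87 CPM per kb in Fl/Fl cultures. Ypel3 made up 58.8% ± 13.0 of this sum in untreated Fl/+, 48.7% ± 5.21 in treated Fl/+ and 49.4% ± 2.43 in Fl/Fl cultures. Ypel5 made up 25.8% ± 10.8, 28.7% ± 5.79 and 35.5% ± 3.82 in the same order. Ypel1 took 8.30% ± 3.07 and 8.30% ± 2.04 in the Fl/+ groups and 2.67% ± 0.611 in Fl/Fl cultures. The equal means of the Fl/+ groups hid changes within mice, since the share of Ypel1 went up after 4-OHT in mice 19 (7.18% to 11.1%) and 24 (4.93% to 7.07%) and down in mice 26 (6.60% to 5.84%), 35 (10.1% to 8.13%) and 36 (12.6% to 9.37%). In mouse 36 the family sum was higher after treatment (26.0 to 30.5 CPM per kb), whereas Ypel1 was lower. In Fl/Fl cultures the share was between 1.97% and 3.38%, below every Fl/+ culture.

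**Figure D3:**
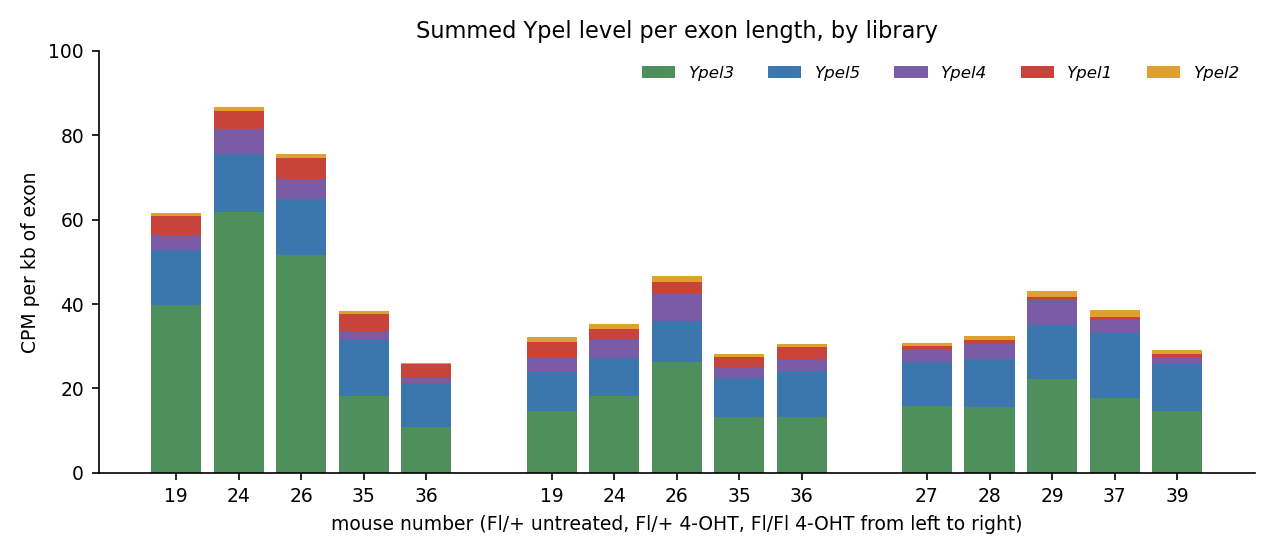
Summed level of the 5 Ypel genes in CPM per kb of exon (vertical axis) in each library, by mouse number, with each gene as a coloured segment. The untreated Fl/+ cultures of mice 19, 24 and 26 stand above the rest through Ypel3 (green), and Ypel1 (red) is thinnest in the 5 Fl/Fl libraries.

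Ypel1 was set against each paralog by the ratio of their CPM within a library. Since 0.5 CPM was added to both levels, ratios of low levels are drawn toward 0 on the log2 scale and are not wholly free of the scaling of libraries. The log2 ratio of Ypel1 to Ypel5 was -1.45 ± 0.137 in untreated Fl/+ (SD, n = 5), -1.61 ± 0.232 in treated Fl/+ and -3.46 ± 0.315 in Fl/Fl cultures. Ypel1 over Ypel2 went from 2.33 ± 0.301 through 1.21 ± 0.404 to -0.28 ± 0.514. Ypel1 over Ypel3 was at -1.52 ± 0.858, -1.22 ± 0.490 and -2.77 ± 0.319, and Ypel1 over Ypel4 at 1.22 ± 0.753, 0.36 ± 0.544 and -0.87 ± 0.707. Against Ypel2, Ypel3 and Ypel5, the highest ratio of an Fl/Fl culture was below the lowest ratio of a treated Fl/+ culture, and against Ypel4 the ranges overlapped. Beside untreated Fl/+ cultures the ratios to Ypel3 overlapped (highest -2.44 in Fl/Fl, lowest -2.49 in untreated), and those to the other paralogs did not. Ypel1 was selected for its fall, so these ratios restate that fall and are a description.

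Within groups, Ypel2, Ypel3 and Ypel4 varied together from culture to culture. Over deviations of the 15 libraries from their group means on the log2 scale, Pearson's r was 0.916 between Ypel3 and Ypel4, 0.802 between Ypel2 and Ypel4 and 0.759 between Ypel2 and Ypel3. Ypel5 had an r of 0.645 with Ypel2 and of 0.475 with Ypel3 and with Ypel4. Ypel1 was less tied to any of them, with r from 0.132 with Ypel5 to 0.462 with Ypel3. The libraries of the Fl/+ groups share mice, so these are descriptions. Untreated cultures of mice 19, 24 and 26 were above those of mice 35 and 36 in Ypel4 (9.70 to 15.5 against 2.65 to 5.73 CPM) and, less widely, in Ypel2 (3.62 to 4.85 against 1.80 to 3.35 CPM). Ypel1 in untreated cultures was split in the same way (19.8 to 23.1 against 15.2 to 18.0 CPM). Whether the mouse numbers stand for a litter or a culture date is not given in the labels.

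The genes whose pattern was most like that of Ypel1 were found by Pearson's r of log2(CPM + 0.5) over the 15 libraries. They were Ppp1r14b, an inhibitor of protein phosphatase 1 (r = 0.978), the transcription factor gene Tsc22d1 (0.976), the channel gene Panx1 (0.973), the methyltransferase gene Mettl13 (0.970) and the protocadherin gene Pcdhb19 (0.968). Their mean levels went down in the same order of groups, as with Ppp1r14b at 139, 95.3 and 32.6 CPM in untreated Fl/+, treated Fl/+ and Fl/Fl cultures. Among the most opposite patterns were those of Top1mt, a mitochondrial topoisomerase (-0.973), Ift122, a component of cilia (-0.970), the glycosyltransferase gene Galnt11 (-0.966) and Ccdc69 (-0.964). Galnt11 was at 49.4, 51.8 and 77.7 CPM in the same order. The 15 libraries fall into 3 groups and some share mice, and over deviations from the group means r was lower in size, from 0.347 for Panx1 to 0.759 for Pcdhb19 among the most alike. Among the opposite ones it was -0.729 for Top1mt, -0.563 for Ift122 and -0.443 for Galnt11, while Ccdc69, at 0.0339, no longer ran opposite to Ypel1.

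YPEL5 works in the CTLH complex, so its partners were examined from a list of 10 subunits, all of which were tested. In the comparison of treated Fl/Fl with Fl/+ cultures 4 of 10 were called, beside 31.7% of all genes. Gid4, the substrate receptor (log2 fold change 0.38, SE 0.116, edgeR adjusted p = 0.0291), Rmnd5b, a RING subunit (0.26, SE 0.0661, adjusted p = 0.0117), and Gid8 (0.26, SE 0.0670, adjusted p = 0.0135) were higher. Rmnd5a, the paralog of Rmnd5b, was lower (-0.24, SE 0.0663, adjusted p = 0.0189). The median over the list was 0.06, beside 0.02 over all genes tested. Gid4 lost its call without any 1 of 6 libraries, treated Fl/+ 19, 35 or 36 or Fl/Fl 27, 28 or 29 (0.31 to 0.37, adjusted p from 0.0554 to 0.0774), and with dispersion estimated over all 15 libraries (0.36, adjusted p = 0.0677). With Fl/Fl 29 and 39 left out together, Gid4 (0.35, adjusted p = 0.0843) and Rmnd5b (0.26, adjusted p = 0.0614) both lost theirs, which left 2 of 10. Rmnd5a lost it with scaling by library size alone (-0.21, adjusted p = 0.0576) and without a filter on low counts (-0.24, adjusted p = 0.0504). After 4-OHT in Fl/+ cultures none of the 10 was called by edgeR, 1 had an unadjusted p under 0.05, and the median was -0.03, beside -0.01 over all genes. With the block 1 was called, Gid8, which was lower (-0.21, SE 0.0652, adjusted p = 0.0423, and -0.22, adjusted p = 0.0540 without the block). The 2 comparisons share the treated Fl/+ libraries, and between Fl/Fl and untreated cultures Gid8 was at 0.04 (SE 0.0772, adjusted p = 0.742). The count was also 1, lower, with DESeq2, with its size factors in edgeR, with dispersion over all 15 libraries, with sex or the mouse number range as a covariate and without the untreated culture of mouse 24, and it was 0 with the block and any 1 mouse left out. Against untreated Fl/+ cultures only Rmnd5a was called in Fl/Fl cultures, and it was lower (-0.30, SE 0.0818, adjusted p = 0.0161). This call was lost with scaling by library size alone (-0.21, adjusted p = 0.0731) and without Fl/Fl 29 and 39 together (-0.35, adjusted p = 0.0532), whereas with the mouse number range as a covariate 2 of 10 were called, 1 higher and 1 lower.

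Among 3 other proteins with a Yippee-like fold, Mis18a and Oip5, which act at centromeres, and Crbn, a ubiquitin ligase receptor, none was called by edgeR or DESeq2 in any of the 3 comparisons, and none had an unadjusted p under 0.05 in the fits without the block. Their log2 fold changes ranged from -0.40 to 0.04 between treated Fl/Fl and Fl/+ cultures and from -0.04 to 0.42 after 4-OHT. With the block, Oip5 after 4-OHT was at 0.56 (SE 0.185, adjusted p = 0.0547), and 1 of the 3 was called, higher, with the block and without mouse 36.

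Of 20 p53 targets, examined because YPEL3 is known as one in human cells, 8 were higher and none lower after 4-OHT in Fl/+ cultures, with a median log2 fold change of 0.51 beside -0.01 over all genes, of which 13.8% were called. With the block 12 of 20 were called, beside 25.7% of all genes. Without the block, Ccng1 and Aen, named here for this reason, lost their calls on leaving out any 1 of several libraries. Without untreated Fl/+ 19, for instance, they were at 0.64 (adjusted p = 0.0804) and 0.65 (adjusted p = 0.0601). Tnfrsf10b and Fas, death receptors, and Cdkn1a, a cell cycle inhibitor, differed most, at 1.67 (SE 0.331, edgeR adjusted p = 0.00826), 1.09 (SE 0.157, adjusted p = 0.00166) and 1.07 (SE 0.167, adjusted p = 0.00246). The value of Ypel3 in the same comparison was -1.09. Between treated Fl/Fl and Fl/+ cultures 3 of 20 were lower, Plk2 (-0.91, SE 0.137, adjusted p = 8.33e-04), Trp53inp1 (-0.44, SE 0.0981, adjusted p = 0.00670) and Zmat3 (-0.27, SE 0.0816, adjusted p = 0.0266), with a median of -0.06 beside 0.02 over all genes, of which 31.7% were called. Zmat3 lost its call without Fl/Fl 27 (-0.27, adjusted p = 0.0552), 29 (-0.24, adjusted p = 0.0517) or 39 (-0.27, adjusted p = 0.0527), with dispersion over all 15 libraries (-0.29, adjusted p = 0.146), with sex as a covariate and without Fl/Fl 39 (-0.26, adjusted p = 0.0585) and without Fl/Fl 29 and 39 together (-0.21, adjusted p = 0.137). In Fl/Fl against untreated Fl/+ cultures 8 were higher and 1 lower, beside 30.7% of all genes called, with a median of 0.42. Of those higher, Zmat3 lost its call without any 1 Fl/Fl culture (0.42 to 0.50, adjusted p from 0.0535 to 0.102), among other settings. Aen lost its call in several settings too, such as without Fl/Fl 28 (0.55, adjusted p = 0.0619).

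**Figure D4:**
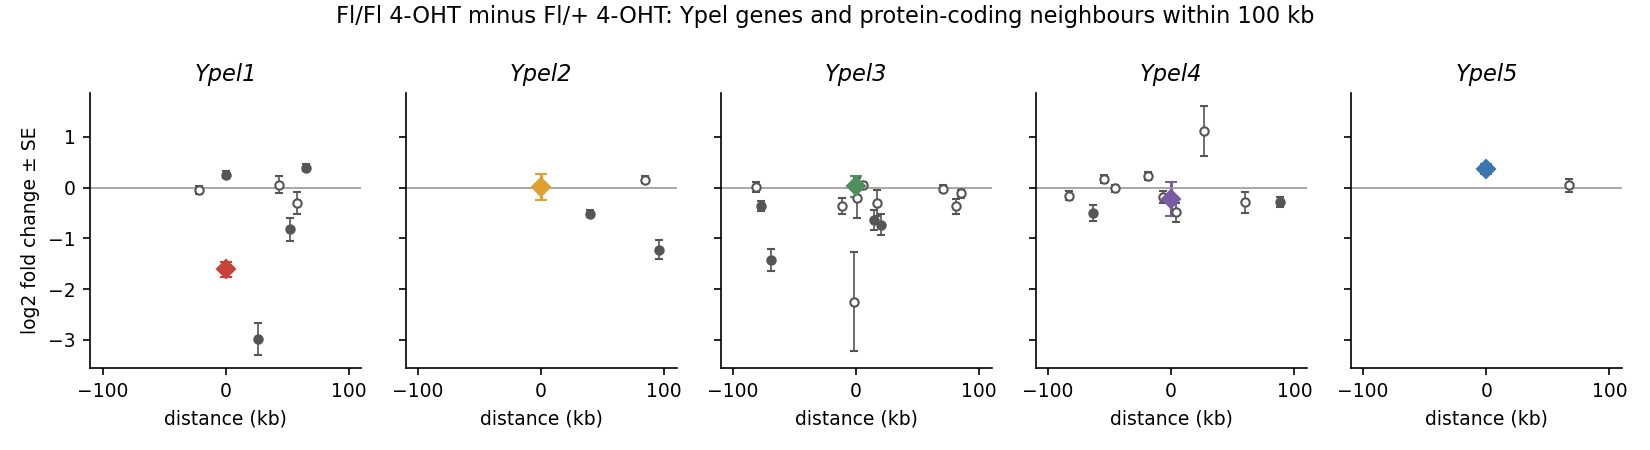
Log2 fold change with SE between treated Fl/Fl and Fl/+ cultures (vertical axis) for each Ypel gene (coloured diamond) and its protein-coding neighbours within 100 kb (grey, filled where called) against distance along the chromosome in kb. Near Ypel1, both higher and lower genes were found, and the lowest lay 26353 bases away.

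The surroundings of the members were examined in the comparison of treated Fl/Fl with Fl/+ cultures. Of 7 protein-coding genes within 100 kb of Ypel1, all tested, 2 were higher and 2 lower, beside 16.8% and 15% of all genes tested. Ppil2 overlaps the end of Ypel1 by 491 bases on the opposite strand and was higher in Fl/Fl cultures, from 90.6 ± 6.81 CPM in treated Fl/+ to 107 ± 4.36 CPM in Fl/Fl cultures (log2 fold change 0.25, SE 0.0677, edgeR adjusted p = 0.0167). This call was lost without a filter on low counts (adjusted p = 0.0533), with sex as a covariate and without Fl/Fl 39 (adjusted p = 0.0503), and without Fl/Fl 29 and 39 together (adjusted p = 0.0958). After 4-OHT in Fl/+ cultures Ppil2 had a log2 fold change of -0.24 (SE 0.0911, adjusted p = 0.105), in the direction of Ypel1, and was called lower with the block (adjusted p = 0.0402). Between Fl/Fl and untreated Fl/+ cultures, at 107 ± 4.36 and 107 ± 11.9 CPM, it was not called (adjusted p = 0.962). The counts were made with strand, so the reads of both genes were kept apart. The gene 2610318N02Rik, 26353 bases from Ypel1 and named here after its values were seen, was at 1.55 to 2.94 CPM in treated Fl/+ and at 0.116 to 0.404 CPM in Fl/Fl cultures (-2.99, SE 0.315, adjusted p = 1.30e-04). It was higher after 4-OHT in Fl/+ cultures (1.07, SE 0.261, adjusted p = 0.0207), where Ypel1 was lower, but without the block this call was lost on leaving out the untreated (1.01, adjusted p = 0.0501) or the treated (0.98, adjusted p = 0.0568) culture of mouse 19. With the block (1.07, adjusted p = 0.0292) it was lost without mouse 19, 24, 26 or 35 (0.88 to 1.15, adjusted p from 0.0654 to 0.0953).

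Near the other members, Gdpd1, the nearest gene on one side of Ypel2 at 40160 bases, was lower in Fl/Fl than in treated Fl/+ cultures (-0.51, SE 0.0729, edgeR adjusted p = 6.10e-04). Within 100 kb, 2 of 3 genes tested near Ypel2, 4 of 13 near Ypel3 and 2 of 10 near Ypel4 were called, all lower, and the 1 gene near Ypel5 was not. Over all genes 31.7% were called, and 15% were called lower. Next to Ypel3, Gdpd3 varied widely and was not called in this comparison, with a log2 fold change of -2.25 (SE 0.967, adjusted p = 0.0977), nor after 4-OHT (-1.79, SE 1.34, adjusted p = 0.408). It was called lower in Fl/Fl than in untreated Fl/+ cultures, at 0.193 to 2.49 against 0.295 to 88.2 CPM (-4.04, SE 1.38, adjusted p = 0.0443). That call was lost with sex as a covariate (-2.13, adjusted p = 0.375), without Fl/Fl 29 and 39 together (-3.99, adjusted p = 0.155), with sex and without Fl/Fl 39 (-0.93, adjusted p = 0.666), without the untreated culture of mouse 24 or 26, and without any 1 Fl/Fl culture (-4.33 to -2.44, adjusted p from 0.0672 to 0.1502 for 1 library left out).

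Markers of other cell types moved with treatment. After 4-OHT in Fl/+ cultures 5 of 8 oligodendrocyte lineage markers were higher and none lower, beside 13.8% of all genes called. Their summed level went from 1193 to 1747 CPM without treatment to 1631 to 2224 CPM with it. Olig2 alone was at 749 to 879 CPM without and 711 to 1009 CPM with treatment. Mog was at 0 in 3 of 15 libraries. Of 5 astrocyte markers 1 was higher and 3 were lower, and of 10 neural stem cell markers 1 was higher and 3 were lower. These calls were made without the block, with which 25.7% of all genes were called, and the markers were not examined with it. Between treated Fl/Fl and Fl/+ cultures 2 of 6 neuron markers and 3 of 10 neural stem cell markers were lower, beside 31.7% of all genes called. The neuron markers summed to 815 to 999 CPM in treated Fl/+ and 555 to 806 CPM in Fl/Fl cultures. Most of this sum was Map2, at 739 to 870 CPM in treated Fl/+ and 512 to 782 CPM in Fl/Fl cultures. No oligodendrocyte lineage marker was called there, and 1 astrocyte marker was higher. In Fl/Fl against untreated Fl/+ cultures 5 of 6 neuron markers, 5 of 10 neural stem cell markers and 3 of 5 astrocyte markers were lower, and 5 of 8 oligodendrocyte lineage markers and 1 astrocyte marker were higher, beside 30.7% of all genes called. The part of these markers in the differences of Ypel genes was not tested.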

How the data were processed

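Total RNA of cultured aNSCs had been made into strand-specific poly(A) libraries and sequenced as single-end reads of 51 bases. Per the methods of the study, reads were mapped to GRCm38 with STAR 2.5.4b, and uniquely mapped reads were assigned to Ensembl genes with featureCounts 1.5.0 in stranded mode, which leaves out reads that map to several places. The values deposited by the authors are raw counts per gene, without normalization. The table held 53801 genes in 15 columns, all used, and 181 gene IDs had no symbol in the annotation. Groups, sex and mouse numbers came from the labels, where the number in a title was read as the mouse. The labels and the methods give different doses and durations of 4-OHT, so neither is stated here.

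Each comparison was fitted on its own 10 libraries with edgeR 4.0.16 (filterByExpr with a minimum count of 10, TMM, quasi-likelihood F test without covariates) in R 4.3.3. Benjamini-Hochberg adjustment was over all genes tested, and calls were made at an adjusted p under 0.05. CPM used TMM-scaled library sizes, and CPM per kb was divided by the union of exons. Exact tests were two-sided and used log2(CPM + 0.5). Totals of 25.7 M to 32.2 M counts set the precision, and without molecular identifiers the floor of 3 counts covers counting error only. DESeq2 1.42.0, other scaling and filters, a shared dispersion, sex and replicate blocks were tried as alternatives.

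The Fl/+ groups share their mice. Deviations from group means over 15400 genes correlated at 0.156 to 0.626 between libraries of the same mouse and at -0.549 to 0.339 between different mice. Mouse 19 was at 0.156, within the range of different mice, and the other mice were at 0.536 to 0.626. Blocked values are given for the Ypel genes, the gene lists and the neighbours named where they change a call. No 2 libraries of a group agreed within sampling noise. The members, the gene lists and the naming rule were chosen with earlier results of these data known. Named were Trrap, the Ypel genes, their nearest neighbours, the genes of the CTLH and fold lists, the 3 p53 targets that differed most among those called, and the 5 genes most and least like Ypel1 with a mean of at least 1 CPM. 2 genes that this rule names are not reported here. Neighbours that passed no test are given in part as counts. Promoter sequences came from RefSeq and coding sequences from the transcripts of the annotation, and all 5 members were matched.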

Additional observations from a re-analysis of the deposited data

Results flagged for a closer look

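In the untreated Fl/+ group, Ypel5 of mouse 36 stood apart from the other mice, at 43.7 CPM beside 54.5 to 57.9 CPM. Its gap to the nearest mouse was 0.759 of the range of the group, past Dixon's limit of 0.71 for 5 samples. Of 30 groups of values examined in this way, 1 passed the limit, and chance flags about 1 in 20. The same culture was also the lowest untreated one in Ypel1, Ypel2, Ypel3 and Ypel4. With mouse 36 left out and the mouse number as a replicate block, the log2 fold change of Ypel5 after 4-OHT was -0.52 (edgeR adjusted p = 0.00475).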

How the results depend on the processing

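Ypel1 kept its direction in all 3 comparisons under every alternative tried. Its log2 fold changes were -1.69 to -1.52 for Trrap deletion, -0.68 to -0.51 for 4-OHT and -2.27 to -2.10 for Fl/Fl against untreated cultures. Ypel1 was selected for its fall in these libraries, so these ranges describe its values and do not test the fall. Settings chosen after seeing the data were the mouse number range as a covariate, sex without Fl/Fl 39, Fl/Fl 29 and 39 left out together, and the block with each mouse left out. A replicate block for the mouse gave 3809 genes called after 4-OHT beside 2044, and Ypel2 (0.61) and Ypel3 (-0.89) passed the threshold. The mouse number range as a covariate gave 3170 genes, with Ypel2 at 0.59 and Ypel3 at -0.89, both past it. Ypel3 also passed after 4-OHT with DESeq2 (-1.10), dispersion over all libraries (-1.09) and sex as a covariate (-0.99), and in Fl/Fl against untreated cultures with DESeq2 (-1.08) and dispersion over all libraries (-1.09). Ypel2 passed in that comparison with sex as a covariate and Fl/Fl 39 left out (0.79). Without Fl/Fl 29 and 39 together, 3066 genes were called for Trrap deletion beside 4773 and 2829 for Fl/Fl against untreated cultures beside 4620. Ypel5 lost its call for Trrap deletion (0.38). Here the number of libraries and the makeup of the group changed together. The causes of these and the other changes were not tested.

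Values near 0 changed sign. For Trrap deletion these were Ypel2 with DESeq2 (-9.27e-04), with DESeq2 size factors (-6.94e-04) and with dispersion over all libraries (-0.0017), Ypel3 without Fl/Fl 29 and 39 (-0.060) and Ypel4 with sex and without Fl/Fl 39 (0.084). In Fl/Fl against untreated cultures, Ypel4 turned with library size alone (0.025), sex (0.020), the number range (0.055) and sex without Fl/Fl 39 (0.37), and Ypel5 with library size alone (0.050) and sex without Fl/Fl 39 (0.026). Library size alone moved the share of higher genes among those called from 53.2% to 66.2% after 4-OHT and from 51% to 66.3% in Fl/Fl against untreated cultures.

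Leaving out 1 library or mouse gave these ranges. For Trrap deletion, they were 3772 to 4734 genes called, -0.18 to 0.12 for Ypel2, -0.10 to 0.22 for Ypel3, -0.54 to 0.010 for Ypel4 and 0.26 to 0.42 for Ypel5. After 4-OHT, leaving out 1 library without the block gave 1271 to 2522 genes, 0.42 to 0.72 for Ypel2, -1.33 to -0.82 for Ypel3, -0.076 to 0.42 for Ypel4 and -0.47 to -0.37 for Ypel5, and the count was lowest without treated Fl/+ 19 (1271) or 35 (1311). With the block and 1 mouse left out, beside 3809 with all mice, it was 2130 (without mouse 35) to 3578 (without mouse 36) genes, 0.53 to 0.685 for Ypel2, -1.18 to -0.65 for Ypel3, 0.039 to 0.51 for Ypel4 and -0.52 to -0.33 for Ypel5. In Fl/Fl against untreated cultures they were 3700 to 4735 genes, 0.42 to 0.73 for Ypel2, -1.31 to -0.80 for Ypel3, -0.37 to 0.19 for Ypel4 and -0.13 to 0.014 for Ypel5. With 5 cultures a group, the SE of Ypel2 to Ypel4 in the main fits without the block was 0.199 to 0.447, beside 0.141 to 0.151 for Ypel1. Small differences of these genes could thus go uncalled. With the block, Ypel2 and Ypel3 were called after 4-OHT.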
